A study of Mus musculus with 6 samples.

Results

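A set of 10 genes that mark hepatocytes around the portal vein were examined in the liver RNA-seq of p62+/+ and p62S351E/+ mice. They were taken by name from the table of estimated counts, and all 10 of them (Cyp2f2, Hsd17b13, Hsd17b6, Sds, Hal, Gls2, Pigr, Etnppl, Aldh1b1 and Cdh1) were found among its 24411 gene symbols. The livers came from 3 p62+/+ and 3 p62S351E/+ mice at postnatal day 19. p62S351E/+ mice carry 1 allele of Sqstm1, the gene encoding p62, with Glu, a phosphomimetic residue, in place of Ser351, in every cell, and 1 wild-type allele. They derive from embryonic stem cells of C57BL/6N origin edited by prime editing and from a single chimeric male, so the allele has 1 founder. No drug or other treatment is named for either group. The comparison asks how liver transcripts differ between the genotypes. The paper reports that p62S351E/+ mice were severely growth-retarded at earlier ages, with serum values it reads as malnutrition and dehydration. Genotype and nutritional state therefore cannot be told apart here.

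Blood enters the liver lobule at the portal vein and leaves at the central vein, and hepatocytes along this path divide their work. Periportal hepatocytes receive blood rich in oxygen and are known for amino acid breakdown, urea synthesis and gluconeogenesis. Pericentral hepatocytes are known for glutamine synthesis and much of the cytochrome P450 metabolism, under Wnt and β-catenin signalling from the central vein. Whole liver was sequenced here, so zones were not separated, and fewer cells of a zone cannot be told apart from less RNA per cell.

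Pigr and Etnppl rose in p62S351E/+ livers, about 4-fold each by the fitted log2 fold changes of 1.93 and 1.98, and none of the 9 members that could be tested fell. The size depended on the scaling: with library size only the log2 fold changes of Pigr and Etnppl were 1.19 and 1.32, with hepatocyte markers as the scale they were 1.24 and 1.43, and neither gene was called under these scalings. Pigr encodes the polymeric immunoglobulin receptor, which carries IgA across epithelial cells, and Etnppl encodes the enzyme that breaks down phosphoethanolamine. The proximal promoters of these 2 called genes and of Hal, the histidine-degrading enzyme gene, are printed from RefSeq on GRCm38.p6. Each is the 250 bases before an annotated start. Etnppl has 2 such starts, and its window at chr3:130617325-130617574 is not printed. Bases after the start were found in an annotated transcript for that window and not for the printed Etnppl window. Capitals mark an E-box CACGTG in Pigr, and in Hal a TCF/LEF core CTTTGA and a TATA box core, which lies on the opposite strand (TTTATA).
Pigr (chr1:130826434-130826683, plus strand): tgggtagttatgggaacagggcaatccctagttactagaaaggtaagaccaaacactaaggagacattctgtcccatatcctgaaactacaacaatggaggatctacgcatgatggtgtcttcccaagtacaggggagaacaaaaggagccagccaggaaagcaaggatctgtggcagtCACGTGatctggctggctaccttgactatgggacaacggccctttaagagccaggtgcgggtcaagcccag
Etnppl (chr3:130617198-130617447, plus strand): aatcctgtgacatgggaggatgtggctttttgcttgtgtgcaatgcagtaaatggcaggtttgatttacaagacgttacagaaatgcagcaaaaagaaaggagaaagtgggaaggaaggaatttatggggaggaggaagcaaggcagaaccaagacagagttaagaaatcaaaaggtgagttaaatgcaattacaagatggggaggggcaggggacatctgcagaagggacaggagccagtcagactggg
Hal (chr10:93488518-93488767, plus strand): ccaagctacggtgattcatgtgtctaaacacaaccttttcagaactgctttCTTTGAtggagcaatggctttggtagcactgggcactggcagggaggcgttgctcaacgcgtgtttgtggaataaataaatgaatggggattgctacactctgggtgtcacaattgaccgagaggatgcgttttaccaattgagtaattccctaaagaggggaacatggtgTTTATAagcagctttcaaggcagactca
Of the members, 7 had an entry in the RefSeq promoter table, with 9 windows in all, and Sds, Gls2 and Cdh1 had none. The core of the antioxidant response element, TGACNNNGC, which NRF2 can bind, was searched on both strands and was in 0 of the 9 windows, against 10.2% of all 32851 promoter windows of this length. CTTTGA occurred in the windows of Hal, Aldh1b1 and Hsd17b13 and in 13.8% of all windows. CACGTG, whose search was added after the Pigr sequence had been read, occurred in Pigr alone among the members and in 6.02% of all windows, and TATAAA was found in Hal alone and in 12.4%. These are matches of letters and not binding sites.

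The estimated counts summed to between 8696710 and 10341600 per library, but Rn45s, Lars2 and Mir6236 took most of them. Outside these 3 genes the libraries held between 134911 counts, in p62S351E/+ mouse 1, and 315436 counts, in p62S351E/+ mouse 3, which sets the precision of every value here. Sqstm1, whose alleles the counts do not separate, had between 73.0 and 86.4 normalized counts in the p62+/+ livers, compared with between 89.9 and 104.7 in the p62S351E/+ livers (edgeR log2 fold change 0.30, adjusted p of 0.499). Of 8 hepatocyte markers such as Alb and Apoa1, all were detected, and their summed counts lay between 10372 and 24974. Transcripts of 10 brain markers, among them Snap25, Gfap and Mbp, summed to 2120, 2179 and 1925 counts in the p62+/+ libraries, to 2 and 5 counts in p62S351E/+ mice 1 and 2, and to 2073 counts in p62S351E/+ mouse 3. Xist also differed, with between 70.8 and 1505 counts in p62+/+ mice, 1 and 0 counts in p62S351E/+ mice 1 and 2 and 1537 counts in mouse 3. The sample labels do not give sex, so its balance between the groups is not known. Since the libraries of p62S351E/+ mice 1 and 2 stand apart, results are given with and without them below.

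Normalized counts are estimated counts divided by the library's TMM-scaled size relative to the geometric mean of the 6 libraries. A gene was called at an adjusted p below 0.05 with a log2 fold change above 1 or below -1, by edgeR's quasi-likelihood test over 5945 genes. Of the 10 members, 9 passed the filter on low counts and Cdh1 did not. Pigr and Etnppl were called higher and 0 were called lower, and over all genes tested 0.841% were called higher and 0.0841% lower.

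**Figure D1:**
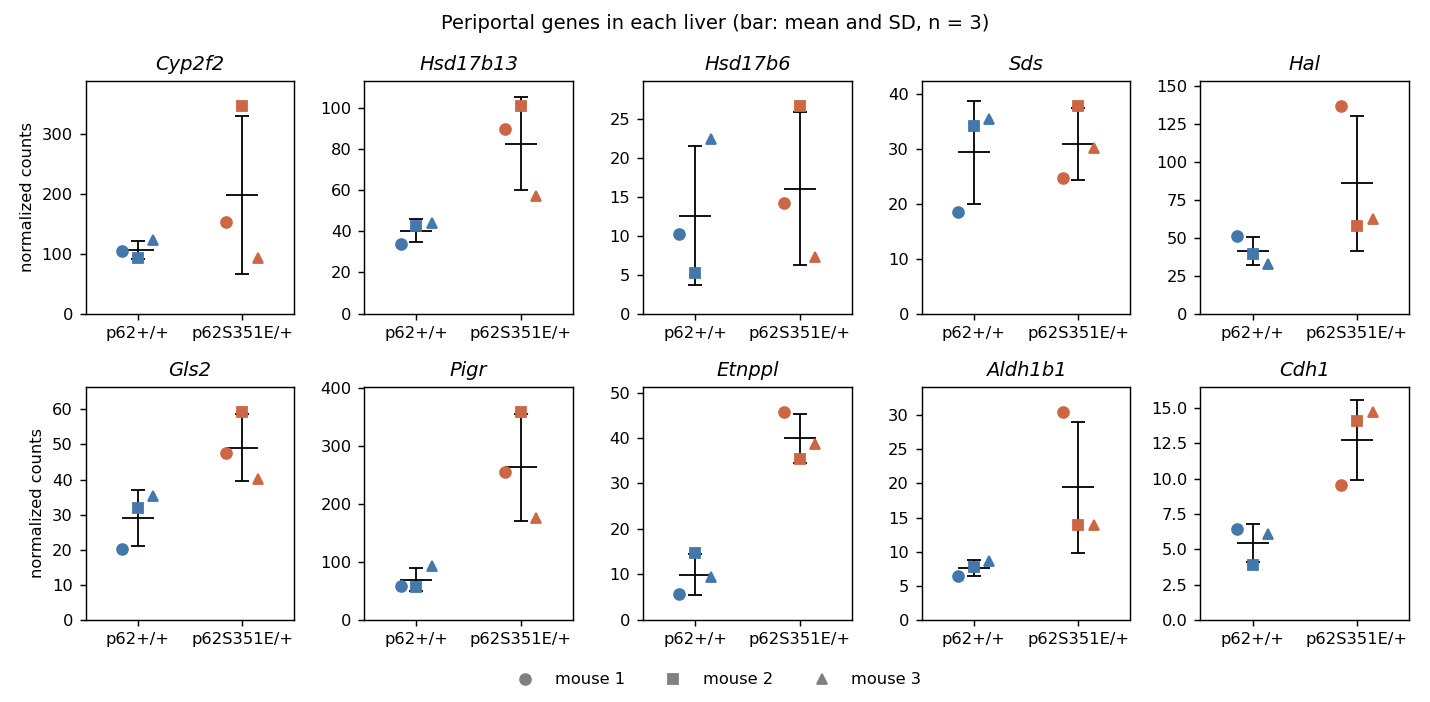
Normalized counts of each of the 10 genes (vertical axes, starting at 0) in the 3 p62+/+ and 3 p62S351E/+ livers, with the mean and SD of each group (n = 3). Pigr lies at or below 92.4 in p62+/+ mice and at or above 175.8 in p62S351E/+ mice, whereas the groups overlap for Cyp2f2, Hsd17b6 and Sds.

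Pigr had 57.8, 57.4 and 92.4 normalized counts in p62+/+ mice 1 to 3 and 255.2, 359.1 and 175.8 in p62S351E/+ mice 1 to 3. Every p62S351E/+ liver lay above every p62+/+ liver, and mouse 3, with brain marker counts like those of p62+/+ mice, was the lowest of its group. The group means were 69.2 ± 20.1 and 263.4 ± 91.9 (SD, n = 3 each), a log2 fold change (log2FC) of 1.93 (standard error, SE, 0.32, 95% interval 1.19 to 2.67, edgeR adjusted p of 0.0381). Pigr lies on chromosome 1 of GRCm38 (mm10) from 130826684 to 130852249, and its counts were whole numbers between 72 and 285 per library. Of its partners, Jchain, which links polymeric IgA, had 1 count over all 6 libraries, and the 4 plasma and B cell markers in the table summed to at most 6 counts in any library. Pigr is also made by bile duct cells, whose markers Krt7, Krt19, Epcam, Cldn7, Cftr and Tspan8 had at most 5 counts each over the 6 libraries. All 9 bile duct markers together summed to between 36 and 110 counts, of which Spp1 gave the most, and overlapped between the groups (30.5, 85.4 and 90.7 normalized counts against 74.3, 47.9 and 27.9).

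Etnppl had 5.62, 14.7 and 9.50 normalized counts in the p62+/+ livers, compared with 45.7, 35.3 and 38.7 in the p62S351E/+ livers. The groups did not overlap, and the 3 p62S351E/+ livers were close to each other. The means of 9.96 ± 4.58 and 39.9 ± 5.31 (SD, n = 3 each) gave a log2FC of 1.98 (SE 0.36, 95% interval 1.17 to 2.80, edgeR adjusted p of 0.0492). It lies on chromosome 3 from 130617448 to 130637521, and its estimated counts were few, from 7 to 50 per library. Etnppl is also expressed by astrocytes. The astrocyte marker Gfap had 0 counts in p62S351E/+ mice 1 and 2, in which Etnppl had 24 and 28 counts, and between 98 and 131 counts in the other 4 libraries. Aqp4, another astrocyte marker, had 51.4 and 3.78 normalized counts in those 2 mice and 46.6 to 49.6 in the others, so it was low in mouse 2 only. All 8 astrocyte markers summed to 47 and 29 estimated counts in those 2 mice against 623 to 731. Their median log2FC was -1.21, and 0 of the 7 tested were called.

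Of 8 listed genes of phosphoethanolamine and phospholipid metabolism 7 were tested, Etnppl alone was called, and the median log2FC was 0.37. Pcyt2, which makes CDP-ethanolamine, and Etnk1, an ethanolamine kinase, had log2FCs of -0.17 (SE 0.22, edgeR adjusted p of 0.717) and -0.33 (SE 0.31, edgeR adjusted p of 0.609).

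Leaving out any mouse other than p62S351E/+ mouse 3 left neither gene called, with adjusted p of up to 0.222 for Pigr and 0.217 for Etnppl (edgeR), while the log2FCs stayed between 1.64 and 2.20 for Pigr and between 1.71 and 2.39 for Etnppl. Without p62S351E/+ mouse 3, Pigr, Etnppl, Cyp2f2, Hsd17b13, Hal and Aldh1b1, 6 of 9 members tested, were called higher, while the genes called over the whole table grew to 329 higher and 976 lower. With p62S351E/+ mice 1 and 2 both left out, the remaining p62S351E/+ mouse 3 could be set against the 3 p62+/+ mice at like brain marker counts, on the assumption that it varies like the p62+/+ mice. In that fit the log2FCs of Pigr and Etnppl were 1.36 and 1.95. They describe 1 p62S351E/+ mouse, in a setting chosen after seeing the data, so no calls are given for it.

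Hal, Gls2 and Sds are enzymes of amino acid breakdown. Hal, which removes ammonia from histidine, had 51.4, 39.6 and 32.8 normalized counts in the p62+/+ livers, compared with 137.1, 58.0 and 62.7 in the p62S351E/+ livers. The groups did not overlap, and p62S351E/+ mouse 1 stood well above the other two of its group. Its log2FC of 1.05 (SE 0.36, 95% interval 0.22 to 1.87) did not pass the threshold (edgeR adjusted p of 0.26). Hal lies on chromosome 10 from 93488768 to 93519304. The next enzymes of the same route, Uroc1, Amdhd1 and Ftcd, had log2FCs of 0.80, 0.43 and 0.93, so that 4 of 4 lay above 0 and 0 of 4 were called. Without p62S351E/+ mouse 2 the value of Hal was 1.27, the highest with 1 mouse left out, and without p62S351E/+ mouse 1 it was 0.56, the lowest.

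Gls2, the liver-type glutaminase, which releases ammonia from glutamine, had 20.1, 31.8 and 35.4 normalized counts in the p62+/+ livers, compared with 47.6, 59.2 and 40.3 in the p62S351E/+ livers. All p62S351E/+ livers were higher, and the nearest of the 2 groups, p62+/+ mouse 3 and p62S351E/+ mouse 3, were close. The log2FC was 0.75 (SE 0.28, 95% interval 0.11 to 1.39, edgeR adjusted p of 0.29). Gls2, on chromosome 10 from 128194457 to 128210004, shares exonic sequence with Spryd4 on the opposite strand, which had between 1 and 6 counts. Glul, the pericentral glutamine synthetase that runs the reverse reaction, had 299.4, 296.5 and 272.1 normalized counts in the p62+/+ livers, compared with 38.1, 119.7 and 191.3 in the p62S351E/+ livers (log2FC -1.30, SE 0.50, edgeR adjusted p of 0.312). Glul is also abundant in astrocytes, and its 2 lowest libraries were the 2 with 2 and 5 brain marker counts. The part of brain transcripts in this difference was not tested. Among the 9 tested genes of glutamine and glutamate handling 7 lay above 0 and 0 were called. The glutamine transporter gene Slc38a3 had a log2FC of 0.47 (SE 0.21), and Glud1, glutamate dehydrogenase, one of 0.10 (SE 0.22).

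Sds, the serine dehydratase that turns serine into pyruvate, differed least. It had 18.5, 34.2 and 35.4 normalized counts in the p62+/+ livers, compared with 24.8, 37.8 and 30.2 in the p62S351E/+ livers, so the groups overlapped over nearly their whole range. The log2FC was 0.08 (SE 0.31, 95% interval -0.63 to 0.79, edgeR adjusted p of 0.914). Sds lies on chromosome 5 from 120476526 to 120483932, where its exons overlap those of Plbd2 on the opposite strand (8 to 36 counts per library). Whether reads were counted by strand is not given in the sources used here, so reads of overlapping partners may not be separable. The other serine and threonine genes with the most counts, Shmt1 and Shmt2, which move 1-carbon units from serine to folate, had log2FCs of 0.31 and 0.88, and 0 of the 5 tested genes of that list were called.

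**Figure D2:**
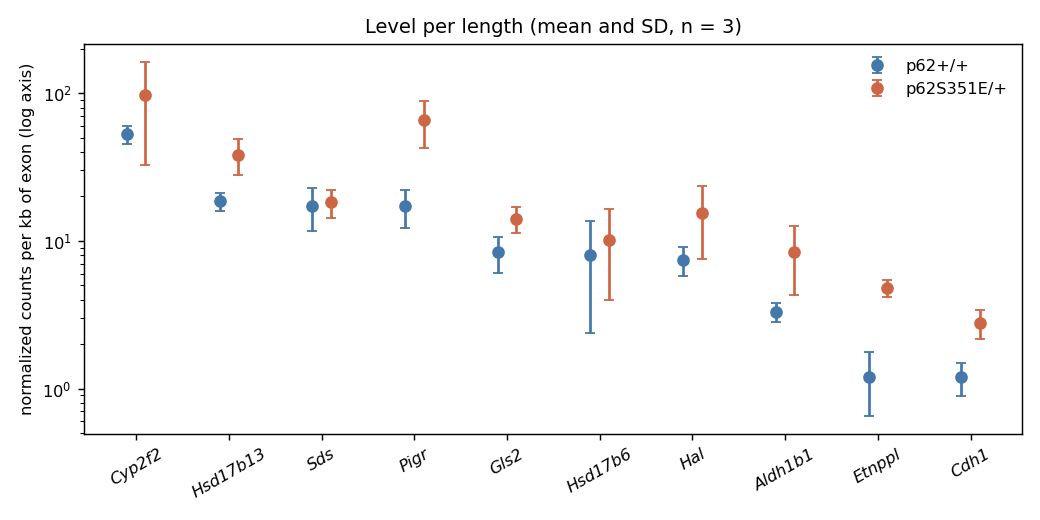
Normalized counts per kb of annotated exon (vertical log axis, mean and SD, n = 3 mice per group) for the 10 genes, ordered by their level in p62+/+ mice. Cyp2f2 stands highest and Etnppl and Cdh1 lowest in p62+/+ livers, and the level of Pigr in p62S351E/+ livers is second to that of Cyp2f2.

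Compared per length, as normalized counts per kb of annotated exon, Cyp2f2 was the highest member in p62+/+ livers with 52.6 ± 7.53 (SD, n = 3). Hsd17b13 followed with 18.6 ± 2.60, and Sds and Pigr, with 17.3 ± 5.58 and 17.2 ± 4.99, did not differ from it beyond their SD. Gls2, Hsd17b6 and Hal formed the next level with 8.38 ± 2.31, 8.01 ± 5.64 and 7.44 ± 1.69, again within their SD of each other. Aldh1b1 had 3.31 ± 0.486, and Etnppl and Cdh1 were lowest with 1.21 ± 0.555 and 1.19 ± 0.30 (SD, n = 3 each). In p62S351E/+ livers Pigr had 65.4 ± 22.8 normalized counts per kb and stood after Cyp2f2 (98.1 ± 65.5) and before Hsd17b13 (38.3 ± 10.5), with the SDs of Pigr and Cyp2f2 overlapping. Exon lengths are those of all annotated transcripts joined (8262 bases for Etnppl), and which exons were used was not measured here.

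Cyp2f2, a cytochrome P450 widely used to mark periportal hepatocytes, had 104.3, 92.4 and 122.6 normalized counts in the p62+/+ livers, compared with 154.2, 347.7 and 93.7 in the p62S351E/+ livers. Mouse 2 of the p62S351E/+ group had the highest level, mouse 3 lay within the p62+/+ range, and the groups overlapped. The log2FC was 0.90 (SE 0.45, 95% interval -0.15 to 1.95, edgeR adjusted p of 0.401). It was 0.22 without p62S351E/+ mouse 2 and 1.24 without mouse 3, when it was called (edgeR adjusted p of 0.00921). Its counts were whole numbers between 81 and 276. Cyp2f2 lies on chromosome 7 from 27119909 to 27133660, where the antisense gene Gm15883 overlaps it.

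Hsd17b13, a lipid droplet protein of hepatocytes with retinol dehydrogenase activity, had 33.7, 42.7 and 44.0 normalized counts in the p62+/+ livers, compared with 89.5, 100.8 and 57.3 in the p62S351E/+ livers. The groups did not overlap, with p62S351E/+ mouse 3 nearest to the p62+/+ mice. Its log2FC of 1.03 (SE 0.27, 95% interval 0.43 to 1.64) did not pass (edgeR adjusted p of 0.138), and with 1 mouse left out it ran from 0.87 to 1.24. Hsd17b13 lies on chromosome 5 from 103955440 to 103977410. Hsd17b6, a hydroxysteroid and retinol dehydrogenase on chromosome 10 from 127990936 to 128007611, had 10.2, 5.16 and 22.4 normalized counts in the p62+/+ livers, compared with 14.2, 26.7 and 7.32 in the p62S351E/+ livers. The groups overlapped, and the log2FC of 0.27 (SE 0.62, 95% interval -1.17 to 1.71, edgeR adjusted p of 0.847) ran from -0.38 to 0.96 with 1 mouse left out. None of its 6 counts was whole, as estimation gives where reads match several genes. Rdh16, a related retinol dehydrogenase that also had counts that were not whole, was called higher, from 6.25 ± 2.28 to 34.3 ± 10.2 normalized counts (SD, n = 3 each; log2FC 2.41, SE 0.38, edgeR adjusted p of 0.0282). It was the only one of the 12 tested genes of hydroxysteroid dehydrogenases and lipid droplets to be called, and Rdh7, the gene of that list with the most counts, had a log2FC of 0.25 (SE 0.24, edgeR adjusted p of 0.624).

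Aldh1b1, a mitochondrial aldehyde dehydrogenase, was low in counts, with 8, 10 and 10 estimated counts in the p62+/+ livers, compared with 16, 11 and 18 in the p62S351E/+ livers. On the normalized scale these were 6.42, 7.76 and 8.64 against 30.5, 13.9 and 13.9, so that the groups did not overlap and mouse 1, the library with the fewest counts outside Rn45s, Lars2 and Mir6236, set the high mean. The log2FC was 1.30 (SE 0.41, 95% interval 0.37 to 2.23, edgeR adjusted p of 0.229), and without p62S351E/+ mouse 1 it was 0.87. Aldh1b1 lies on chromosome 4 from 45799022 to 45804604. All 11 listed aldehyde dehydrogenase genes were tested and had log2FCs above 0, with a median of 0.84, and 0 were called. The gene with the most counts, Aldh2, the main acetaldehyde-oxidizing enzyme, had 231.3 and 374.9 normalized counts on average (log2FC 0.70, SE 0.24, edgeR adjusted p of 0.257), and Aldh1l1, which oxidizes formyltetrahydrofolate, had a log2FC of 1.31 (SE 0.26, edgeR adjusted p of 0.0744).

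Cdh1, which encodes the adhesion protein E-cadherin and lies on chromosome 8 from 106603351 to 106670246, had too few counts for the main test. The p62+/+ libraries held 8, 5 and 7 estimated counts of it, the p62S351E/+ libraries 5, 11.2 and 19. The normalized counts of 6.42, 3.88 and 6.05 against 9.52, 14.1 and 14.7 did not overlap, but p62S351E/+ mouse 1 rests on 5 counts. Without a filter on low counts its log2FC was 1.21 (SE 0.43, edgeR adjusted p of 0.367). Of its partners at adherens junctions, Ctnnb1 (β-catenin) and Ctnnd1 (p120-catenin) had log2FCs of -0.54 (SE 0.21, edgeR adjusted p of 0.309) and 0.02 (SE 0.22, edgeR adjusted p of 0.972), and 0 of the 5 tested genes of that list were called. Cdh2, the other classical cadherin of hepatocytes, had 37.1 ± 2.84 and 24.9 ± 6.83 normalized counts (SD, n = 3 each), a log2FC of -0.57 (SE 0.26, edgeR adjusted p of 0.356), with all p62S351E/+ livers below all p62+/+ livers.

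**Figure D3:**
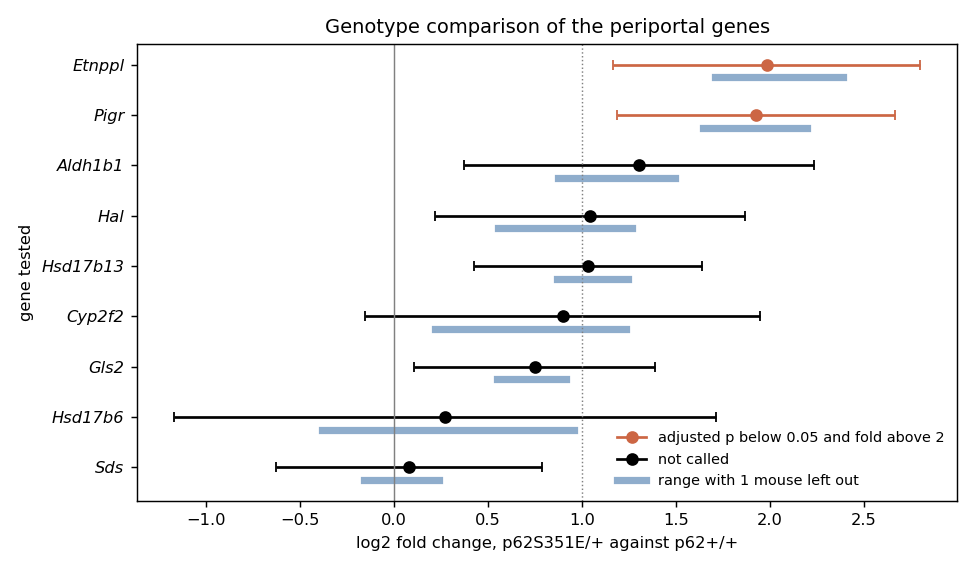
Log2 fold change of p62S351E/+ against p62+/+ mice with its 95% interval for the 9 genes tested, and below each point the range over the fits that left out 1 mouse. Pigr and Etnppl, at 1.93 and 1.98, are the 2 genes called, and the intervals of Cyp2f2, Hsd17b6 and Sds include 0.

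The fitted log2FCs of the 9 tested members lay between 0.08 and 1.98, with a median of 1.03, where the median of all 5945 genes tested was -0.03 and 48.0% of them lay above 0. With scaling by library size only or by hepatocyte markers 7 of the 9 lay above 0, Hsd17b6 and Sds below it, and the median of all genes moved to -0.68 and -0.58. The p62S351E/+ livers lay above all p62+/+ livers for 6 of the 9, and the same held for 12.0% of all genes tested. An unadjusted p below 0.05 was found for 6 of the 9, all higher, against 9.02% of all genes higher, 5.55% lower and 14.6% in either direction. Other liver lists also lay above these shares. By the same measure 9 of 23 pericentral genes were higher and 3 lower. Of 8 hepatocyte markers 3 were higher and 0 lower, and of 11 aldehyde dehydrogenase genes 10 were higher and 0 lower. The log2FC was above 1 for 5 of the 9 and below -1 for 0, against 4.32% and 12.8% of all genes. Over the 6 mice the members' log2 normalized counts (with 1 added) had a Pearson r above 0 in 44 of 45 pairs. The median r was 0.63, from 0.96 between Hsd17b13 and Pigr to -0.38 between Sds and Hal. Some pairs were near 0, such as Sds and Aldh1b1 with 0.04. These points share libraries and their scaling and pool both genotypes, so the correlations are a description only.

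The 21 tested genes of a longer periportal list, such as the urea cycle genes Cps1 and Arg1 and the gluconeogenic Pck1, had a median log2FC of 0.63, and 17 lay above 0. None was called by edgeR, although 8 higher and 1 lower had an unadjusted p below 0.05, and without p62S351E/+ mouse 3 a total of 7 were called higher and 0 lower. DESeq2 called 1 higher and 0 lower, and limma-voom 2 higher and 0 lower. In edgeR, 1 was called higher with no filter, 1 higher and 1 lower with at least 10 counts in every library, and 1 lower with hepatocyte scaling. Pck1, with 418.6 ± 147.2 and 1168 ± 285.3 normalized counts (SD, n = 3 each), had the largest log2FC of that list, 1.48 (SE 0.32, edgeR adjusted p of 0.0879). Alb and Trf, plasma protein genes and the genes of that list with the most counts, had values of 0.83 and 0.81, and Igf1, the growth factor gene, one of -0.91 (SE 0.25, edgeR adjusted p of 0.165). Of the 8 hepatocyte markers 7 lay above 0, with a median of 0.64, and 0 were called. Alb and Trf belong to both lists.

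Of 23 tested pericentral genes, 14 lay above 0 and 9 below, with a median of 0.28. Cyp2a5 and Cyp2c37, a pair of cytochrome P450 genes, were called higher, with log2FCs of 3.18 (SE 0.39, edgeR adjusted p of 0.00891) and 2.04 (SE 0.25, edgeR adjusted p of 0.00913), although none of the counts of either was whole, as estimation gives where reads match several genes. In this list limma-voom called 4 higher and 2 lower, and edgeR without p62S351E/+ mouse 3 called 5 higher and 3 lower. Cyp7a1, the rate-limiting enzyme of bile acid synthesis, and Cyp3a11 had log2FCs of -1.72 (SE 0.36, edgeR adjusted p of 0.0840) and -1.06 (SE 0.24, edgeR adjusted p of 0.109). Cyp2e1, the pericentral gene with the most counts, had one of 0.12 (SE 0.23, edgeR adjusted p of 0.815). Whether the 2 zones differ in their shift was not tested, since the lists were chosen with earlier results known. Of 5 midlobular genes 3 lay above 0 and 2 below. Igfbp2, which binds insulin-like growth factors, was the only one called, and it was higher (log2FC 2.16, SE 0.33, edgeR adjusted p of 0.0282). The 2 below 0 were Hamp (log2FC -0.99, SE 0.43, edgeR adjusted p of 0.34) and Hamp2 (log2FC -1.03, SE 0.45, edgeR adjusted p of 0.353). Of 14 genes that set zonation, such as Wnt ligands and receptors, 7 were tested and 0 were called. Hnf4a, a factor of hepatocyte identity, had a log2FC of 0.73 (SE 0.24, edgeR adjusted p of 0.241), and the Wnt genes Wnt2 and Wnt9b had 2 and 4 counts over all 6 libraries.

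**Figure D4:**
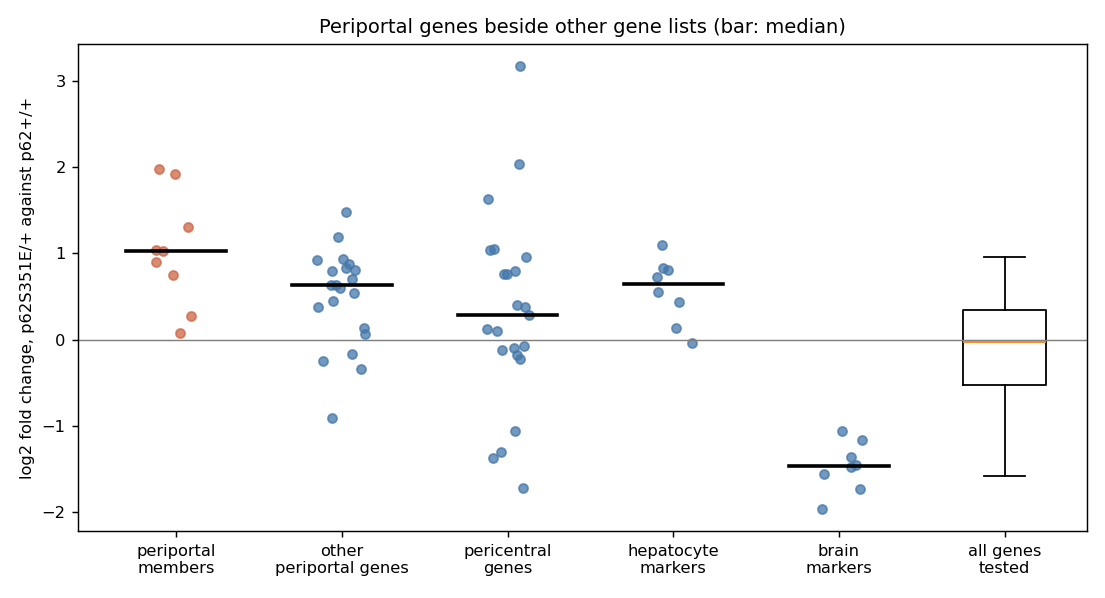
Log2 fold change of p62S351E/+ against p62+/+ mice for the tested genes of 5 lists (points, with a bar at the median) and for all genes tested (box from the lower to the upper quartile, whiskers from the 5th to the 95th percentile). The median is 1.03 for the 9 periportal genes, 0.63 for other periportal genes, 0.28 for pericentral genes, 0.64 for hepatocyte markers and -1.46 for brain markers.

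Set against hepatocyte RNA, the 10 members together made up 22.9, 25.6 and 30.8 counts per 1000 counts of the 8 hepatocyte markers in the p62+/+ livers, compared with 40.9, 33.4 and 38.2 in the p62S351E/+ livers. All p62S351E/+ livers lay above all p62+/+ livers by this ratio, p62S351E/+ mouse 3 with its brain marker counts included. Pigr, a called gene, gave 72, 74 and 107 of the 392, 425 and 474 member counts in p62+/+ mice 1 to 3. In p62S351E/+ mice 1 to 3 it gave 134, 285 and 227 of 424, 835 and 690. The ratio is therefore not a trait of each member. With the counts of Pigr taken out, it overlapped between the groups. With the hepatocyte markers as the scaling, the median of all genes moved to -0.58 and that of the members to 0.38. The members' median was 0.96 above that of all genes, and 0 members were called. This gap was 1.06 in the analysis reported and 0.91 with library size only. Scaling shifts all genes of a library alike, so the gap does not compare the members with the hepatocyte markers. The members' log2FCs then ran from -0.52 for Sds and -0.49 for Hsd17b6, over 0.09 for Cyp2f2, to 1.24 for Pigr and 1.43 for Etnppl. The brain markers, whose median log2FC was -1.46, had 2 and 5 counts in the 2 libraries in which the summed normalized counts of the members were highest (808.3 and 1052, against 534.9 in p62S351E/+ mouse 3 and 314.4 to 409.4 in p62+/+ mice). With the brain marker counts as a covariate the median of the members was 0.53 and 0 were called, and Pigr and Etnppl had log2FCs of 1.37 (edgeR adjusted p of 0.106) and 1.93 (edgeR adjusted p of 0.0842). Low brain marker counts occurred only in p62S351E/+ mice 1 and 2, so these genotype estimates rest mainly on p62S351E/+ mouse 3. The part of brain transcripts in the members' values was not tested further. Markers of other liver cells gave 0 calls, and their summed normalized counts overlapped between the groups for endothelial cells. Kupffer cell markers summed to between 41.1 and 57.9 in p62+/+ livers and between 65.1 and 80.0 in p62S351E/+ livers. Of the 6 Kupffer cell markers 3 were tested, with 1 higher and 1 lower in every p62S351E/+ liver. Marco, not tested, had between 0.78 and 2.59 normalized counts in p62+/+ livers and between 12.6 and 22.9 in p62S351E/+ livers. Clec4f went the other way, from between 18.1 and 24.1 to between 11.4 and 16.4. Sums were lower in all p62S351E/+ livers for stromal markers (139.7 to 261.7 against 85.7 to 131.4) and erythroid markers (135.9 to 195.2 against 56.2 to 132.9), and their part in the members' values was not tested.

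**Figure D5:**
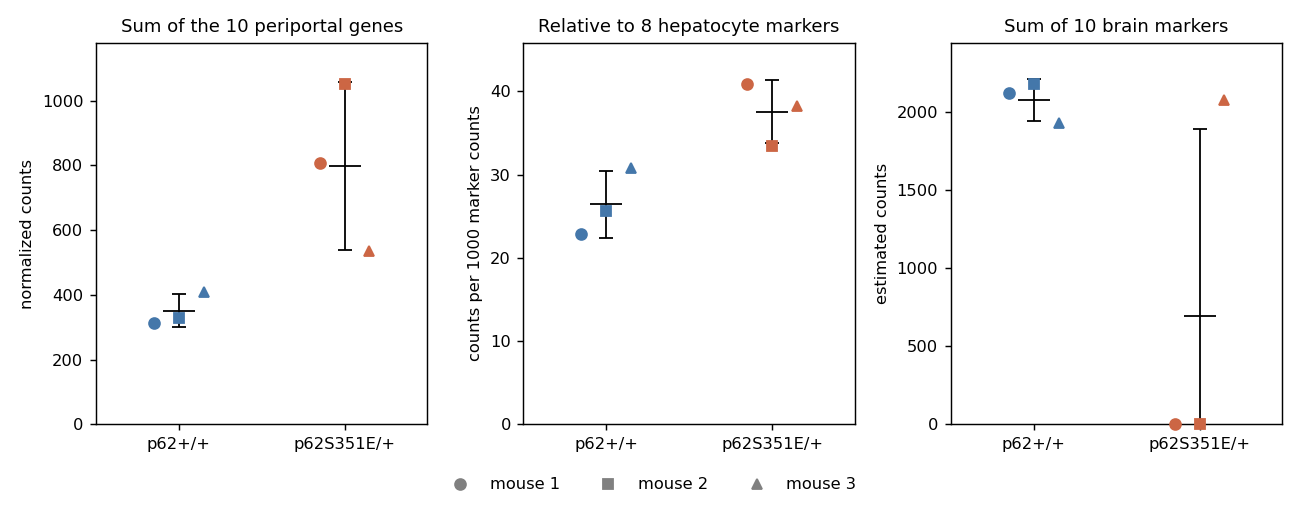
Sum of the 10 periportal genes in normalized counts, the same genes per 1000 counts of 8 hepatocyte markers, and the summed estimated counts of 10 brain markers in each liver (points, with mean and SD, n = 3 per group, axes starting at 0, where the lower bar of the p62S351E/+ brain markers is cut off). The periportal sum is highest in p62S351E/+ mice 1 and 2, which have 2 and 5 brain marker counts, and in mouse 3 it is 534.9 normalized counts, above the highest p62+/+ value of 409.4.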

How the data were processed

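Total RNA of mouse livers was depleted of ribosomal RNA, and libraries were read as single ends. The authors mapped reads to mm10 with STAR after trimming and estimated reads per gene by RSEM. The deposited values are these estimated counts (expected counts), without normalization, and 6.45% of nonzero values were not whole. Tool versions, the annotation and any strand setting are not given in the sources used here.

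Counts were rounded and tested in R 4.3.3 with edgeR 4.0.16 (filterByExpr with a minimum count of 10, TMM, robust quasi-likelihood test with legacy set to FALSE) and Benjamini-Hochberg adjustment over 5945 genes. DESeq2 1.42.0, limma-voom (limma 3.58.1), other scalings and filters, covariates, a replicate block and leaving out mice were alternatives. The fit without p62S351E/+ mice 1 and 2 was added after the data had been seen. Standard errors are the absolute log2 fold change over the root of F.

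All 10 members were named. Of other lists, called genes and up to 2 tested genes with the most counts were named, and further genes were chosen after their values were seen. Members and lists were chosen with earlier results of these data known. Positions and exon lengths come from GENCODE M21 (GRCm38, the build of mm10). Nothing states litters or batches. The p-values set the group difference against the spread between these mice, from which litter or batch differences cannot be separated.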

Additional observations from a re-analysis of the deposited data

How the results depend on the processing

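Pigr and Etnppl stayed above 0 under every alternative that gave them a value, but their calls and sizes depended on the setting (1.19 and 1.32 with library size only, 1.24 and 1.43 with hepatocyte scaling). The cause of each change was not tested. Genes called higher and lower over the whole table numbered 50 and 5 in the analysis reported. They numbered 66 and 8 with DESeq2, 122 and 13 with limma-voom, 59 and 8 with the legacy quasi-likelihood test, 79 and 10 with no filter, 70 and 29 with at least 10 counts in every library, and 18 and 1 at an adjusted p below 0.01. They numbered 12 and 2 with scaling by library size only, 12 and 5 with scaling by hepatocyte markers, 30 and 2 with brain markers as a covariate, 27 and 2 with Xist as a covariate, and 72 and 23 without p62S351E/+ mice 1 and 2, a setting chosen after seeing the data. Leaving out 1 mouse at a time gave 16 to 329 higher and 1 to 976 lower, with p62S351E/+ mouse 3 left out at the upper end.

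The number of members called was 1 with DESeq2 size factors and under the minimum of 10 counts per library (6 members remained there, and Etnppl was not among them), 0 with library size only, hepatocyte scaling, either covariate or an adjusted p below 0.01, and 0 to 6 with 1 mouse left out. The members' median log2 fold change was 0.23 with library size only, 0.38 with hepatocyte scaling, 0.68 over the 6 members left with at least 10 counts, 0.53 with the brain covariate, 0.72 with Xist and 0.57 without p62S351E/+ mice 1 and 2. Library size only moved the median of all genes to -0.68.

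With the replicate block, 18 genes were called higher and 1 lower, and 0 members were called (Pigr adjusted p = 0.183, Etnppl 0.171, edgeR). The numbers name different animals, and same-numbered mice had correlations of 0.0713, -0.0853 and 0.000353. Differently numbered mice had correlations from -0.0925 to 0.0929. Whether same-numbered mice share a litter or batch is not given, and so few mice cannot decide it.

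Some members changed sign. Hsd17b6 was -0.50 with library size only, -0.49 with hepatocyte scaling, -0.80 with the brain covariate, -0.50 with Xist, -0.83 without p62S351E/+ mice 1 and 2, and -0.38 to 0.96 with 1 mouse left out. Sds was -0.54, -0.52 and -0.16 with library size only, hepatocyte scaling and at least 10 counts, and -0.16 to 0.24 with 1 mouse left out. Cyp2f2 was -0.11 with the brain covariate and -0.17 without p62S351E/+ mice 1 and 2. Counts of 5 to 50 per library limit Etnppl, Aldh1b1 and Cdh1.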
